A study of Homo sapiens with 9 samples.

Results

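The JAK kinases, the receptors of the gp130 family and the feedback genes of STAT signalling were followed in H1299 cells depleted of FIBP. The members were 10 genes chosen by symbol, of 60966 genes in the deposited tables, namely JAK1, JAK2, TYK2, IL6R, IL6ST, LIFR, SOCS1, SOCS3, PIAS3 and PIM1. FPKM (fragments per kilobase of transcript, scaled to the mapped fragments of the library) of all transcripts of a gene were summed, which took in 106 transcripts for the members. H1299 is a long-established line of human lung carcinoma cells of the non-small cell type. The cells were transfected for 48 h with a scrambled siRNA (Scramble) or with 1 of 2 siRNAs against FIBP (Si-FIBP#1 and Si-FIBP#2), with 3 samples in each group. Messenger RNA was then selected by its poly(A) tail and sequenced from both ends. The study asked how the transcription profile of lung cancer cells changes when FIBP, a partner of the transcription factor STAT3, is lost. The design text deposited with the series calls the samples independent, and nothing says how the cultures were separated, so p-values measure the spread between these samples only. All 9 samples come from a single cell line, and siRNA depletion at a single time is the only model used here.

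Cytokines of the IL-6 family bind a ligand-specific receptor such as IL6R or LIFR and signal through the shared subunit gp130, the product of IL6ST. The receptor tails carry the tyrosine kinases JAK1, JAK2 and TYK2, which phosphorylate STAT3 on tyrosine so that it dimerizes and binds DNA. SOCS1 and SOCS3 are induced by STATs and block the kinases or the receptor, PIAS3 binds STAT3 itself, and PIM1 is a serine/threonine kinase whose gene is a known STAT target. In lung cancer cells this pathway is known for supporting growth and survival.

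FIBP, the targeted gene, was at 88.38, 79.49 and 77.74 FPKM in Scramble, at 7.49, 7.77 and 4.30 FPKM after Si-FIBP#1 and at 7.13, 5.92 and 8.21 FPKM after Si-FIBP#2. The mRNA thus stood at 8.0% and 8.7% of the Scramble mean, in accord with the labels of all 6 depleted samples. The tables hold no counts, and a depth estimated from the steps between low values was 20000000 to 23850000 fragments per library. The number of genes at 1 FPKM or more was 13894 to 14124 in Scramble and 14406 to 14715 in the depleted samples, without overlap. The keratins KRT8 and KRT18 and the intermediate filament gene VIM were abundant in every sample, and the summed FPKM of 4 leukocyte markers was at most 0.82, of 2 endothelial markers at most 0.20 and of 3 fibroblast markers 0.19 to 0.57 in Scramble and 0.82 to 3.07 in the depleted samples. KRT19 and EPCAM stayed at or below 0.29 FPKM and CDH1 was listed at 0, so of the 5 epithelial markers KRT8 and KRT18 alone were at a level above that. Summed over the 5 epithelial markers, the level was 575.39 to 587.57 FPKM in Scramble and 210.12 to 302.06 FPKM in the depleted samples. VIM, the mesenchymal marker, also fell, from 3151 to 3369 FPKM in Scramble to 1592 to 2455 FPKM in the depleted samples (-0.49 and -0.72 on the log2 scale, adjusted p = 0.00512 and 0.000572). Both falls, and the higher sum of the fibroblast markers in all 6 depleted samples, moved with the treatment, and their part in the results below was not tested.

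For the tests, genes that reached 1 FPKM in 3 or more samples were compared on log2(FPKM + 1), and fold changes below are on that scale, which understates the change of low genes. Of the 10 members, 9 passed this filter and SOCS1 did not. With Si-FIBP#1, 6 of the 9 passed an adjusted p of 0.05, with JAK1, TYK2 and LIFR higher and IL6ST, SOCS3 and PIM1 lower. At that threshold 47.7% of all 14985 genes tested were called, 27.8% as higher and 19.9% as lower, so calls were common among genes in general, and 6 of 9 is to be read against that share. With Si-FIBP#2 the same 6 genes passed in the same directions, beside 48.8% of all genes, 31.1% as higher and 17.7% as lower. Both comparisons use the same 3 Scramble samples, so their likeness is not independent. When the study's threshold of over 2-fold was added, PIM1 alone remained in each comparison, beside 5.66% of all genes for the first siRNA and 5.05% for the second. This depends on the pseudocount of 1 and on the scaling. With a pseudocount of 0.1 the LIFR values were 1.00 and 1.02 (adjusted p = 0.00284 and 0.00264), past 2-fold as well, and under median-ratio scaling IL6ST also passed with Si-FIBP#1. LIFR reached 1 FPKM in the 6 depleted samples and in no Scramble sample, so it entered the test only because it was high there. Without the filter all 10 members could be fitted, and 3 were higher and 3 lower with Si-FIBP#1, beside 20.4% of 32076 genes called, while 3 were higher and 2 lower with Si-FIBP#2, beside 21.1%. In that fit the median log2 fold change of the 10 members was 0.083 and 0.198, against 0.0142 and 0.0279 over all genes. With the filter, the medians of the 9 members tested were 0.058 and 0.242, against 0.0733 and 0.111 over all genes.

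In Scramble cells TYK2 had the highest level of the 10 genes, at 56.1 ± 4.6 FPKM (SD, n = 3), followed by JAK1 at 38.3 ± 0.357 FPKM. PIAS3 (30.9 ± 2.04 FPKM) and IL6ST (29.8 ± 2.9 FPKM) came next, and the samples of these 2 neighbours overlapped. Below them stood PIM1 at 11.8 ± 0.932 FPKM, SOCS3 at 8.38 ± 0.165 FPKM and JAK2 at 2.91 ± 0.09 FPKM. Lower still were IL6R at 1.13 ± 0.419 FPKM and LIFR at 0.773 ± 0.09 FPKM, and SOCS1 was last at 0.277 ± 0.18 FPKM. Apart from PIAS3 and IL6ST, no neighbours in this order overlapped. With Si-FIBP#1 the order of IL6R and LIFR was exchanged, and all other ranks were the same in the 3 groups. The place of TYK2 rests on its short transcripts. Over transcripts of at least 1000 nt alone, a setting chosen after seeing the data, it stood at 22.5 ± 2.4 FPKM, below JAK1 (38.3 FPKM), PIAS3 (30.8 FPKM) and IL6ST (24.8 FPKM). In that order the samples of TYK2 overlapped those of IL6ST, and those of LIFR (0.71 FPKM) overlapped those of IL6R (0.67 FPKM).

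JAK1 (ENSG00000162434), a kinase that most gp130 receptors need, lies on the minus strand at chr1:64833229-64966504 of GRCh38. Its level was 38.71, 38.04 and 38.16 FPKM in Scramble, 51.62, 53.64 and 54.21 FPKM after Si-FIBP#1 and 51.19, 53.27 and 53.38 FPKM after Si-FIBP#2. All 6 depleted samples lay above all 3 Scramble samples, and the samples of the 2 siRNAs lay in the same range. The log2 fold change was 0.46 ± 0.046 (SE, 95% CI 0.36 to 0.57, adjusted p = 3.99e-05) with Si-FIBP#1 and 0.45 ± 0.046 (95% CI 0.34 to 0.55, adjusted p = 5.1e-05) with Si-FIBP#2. As in any bulk sample, a change in the share of cells with a transcript and a change in its level per cell cannot be told apart. The rise was spread over many isoforms. Of 27 JAK1 transcripts, 23 were above 0 in at least 1 sample, and the most abundant, ENST00000672574, took 17.1% to 18.9% of the gene's FPKM in the 3 groups. An exon of RAVER2 overlaps JAK1 on the other strand, and whether fragments were assigned by strand is not given in the sources used here.

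TYK2 (ENSG00000105397, minus strand, chr19:10350529-10380676), the JAK of the type I interferon and IL-12 receptors that also attends gp130, was at 60.74, 51.54 and 56.09 FPKM in Scramble, at 69.74, 70.03 and 62.29 FPKM after Si-FIBP#1 and at 65.25, 69.56 and 69.85 FPKM after Si-FIBP#2. The lowest depleted sample stood at 62.29 FPKM and the highest Scramble sample at 60.74 FPKM, so the groups did not overlap but lay close together. The log2 fold changes were 0.26 ± 0.0717 (95% CI 0.10 to 0.42, adjusted p = 0.0139) and 0.28 ± 0.0717 (95% CI 0.12 to 0.44, adjusted p = 0.0096). When samples were scaled by their median ratio, these became 0.18 and 0.16 and neither passed the threshold (adjusted p = 0.0503 and 0.0796). Without Scramble replicate 2 the Si-FIBP#1 value was 0.20 (adjusted p = 0.0567), and without Si-FIBP#1 replicate 2 it was 0.23 (adjusted p = 0.0533). Transcripts shorter than 1000 nt made up 59.1% of the TYK2 FPKM. The largest was ENST00000525976 of 495 nt, with a mean of 16.0 FPKM over the 9 samples, and the 4243-nt transcript ENST00000525621 had a mean of 11.8 FPKM.

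JAK2 (ENSG00000096968, plus strand, chr9:4984390-5128183), the kinase of the erythropoietin and growth hormone receptors that is also found on gp130, was at 2.97, 2.81 and 2.96 FPKM in Scramble, at 3.14, 2.81 and 3.75 FPKM after Si-FIBP#1 and at 3.67, 3.80 and 3.42 FPKM after Si-FIBP#2. The Si-FIBP#1 samples overlapped the Scramble samples, and the Si-FIBP#2 samples lay above them. Neither difference passed the threshold, with 0.11 ± 0.104 (95% CI -0.13 to 0.34, adjusted p = 0.424) and 0.24 ± 0.104 (95% CI 0.01 to 0.48, adjusted p = 0.0812). The gene was read almost entirely from 1 transcript, ENST00000381652, which held 96.1% of its FPKM in Scramble. With transcripts of at least 1000 nt alone, the value with Si-FIBP#2 was 0.25 and passed (adjusted p = 0.0239).

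IL6ST (ENSG00000134352, minus strand, chr5:55935095-55994993) encodes gp130. Its level was 28.86, 27.43 and 33.02 FPKM in Scramble, 13.65, 15.54 and 15.90 FPKM after Si-FIBP#1 and 25.06, 25.98 and 24.50 FPKM after Si-FIBP#2. The 3 groups did not overlap at all, with Scramble on top, Si-FIBP#2 next and Si-FIBP#1 at the bottom. Expressed as a share of the Scramble mean, the sum over all IL6ST transcripts stood at 50.5% with Si-FIBP#1 and at 84.6% with Si-FIBP#2. The second share rests mostly on short transcripts, as given below. On the log2 scale the difference was -0.94 ± 0.0825 (95% CI -1.12 to -0.75, adjusted p = 1.81e-05) with Si-FIBP#1, and it passed in all 18 alternatives tried. With Si-FIBP#2 it was -0.23 ± 0.0825 (95% CI -0.41 to -0.04, adjusted p = 0.043), and it passed in 9 of 18. It missed the threshold on annotated transcripts alone (-0.19, adjusted p = 0.0999), without a filter on low values (-0.23, adjusted p = 0.0832) and without Scramble replicate 1 (-0.25), Scramble replicate 3 (-0.15), Si-FIBP#1 replicate 2 (-0.23) or any of Si-FIBP#2 replicates 1, 2 and 3 (-0.23, -0.25 and -0.21).

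The IL6ST value was divided among several transcripts. The 8776-nt ENST00000336909 was at 7.83, 9.78 and 10.07 FPKM in Scramble, at 5.19, 7.91 and 6.69 FPKM after Si-FIBP#1 and at 12.97, 8.73 and 9.36 FPKM after Si-FIBP#2. The 9027-nt ENST00000381298 was at 10.87, 8.77 and 7.76 FPKM in Scramble, at 4.74, 2.46 and 6.35 FPKM after Si-FIBP#1 and at 6.84, 9.52 and 10.06 FPKM after Si-FIBP#2. In these 2 transcripts the Si-FIBP#2 samples overlapped the Scramble samples, and the mean with Si-FIBP#1 was below that of Scramble. The assembled 9129-nt MSTRG.21129.1 was at 4.33, 5.66 and 6.12 FPKM in Scramble, at 1.47, 2.57 and 1.92 FPKM after Si-FIBP#1 and at 4.20, 3.73 and 4.14 FPKM after Si-FIBP#2. Here all 6 depleted samples lay below Scramble, those of Si-FIBP#1 lowest. The 282-nt ENST00000577363 was at 4.52, 0.00 and 3.71 FPKM in Scramble and was listed at 0 in all 3 Si-FIBP#2 samples. The 479-nt ENST00000583149 and the 481-nt ENST00000523039 had means of 0.66 and 0.307 FPKM in Scramble and 0 with Si-FIBP#2. For the 418-nt ENST00000506241 these means were 1.257 and 0.99 FPKM. The lower gene sum with Si-FIBP#2 thus lay mostly in transcripts under 1000 nt. When only transcripts of at least 1000 nt were summed, the change with Si-FIBP#2 was -0.04 (adjusted p = 0.711). In that sum the lower mean of MSTRG.21129.1 (4.02 against 5.37 FPKM in Scramble) stood against a higher mean of ENST00000336909 (10.4 against 9.23 FPKM). An antisense gene, AC008914.1, overlaps an IL6ST exon.

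IL6ST and LIFR held matches to the seeds of both siRNAs. A seed is bases 2 to 8 of a guide strand, through which an siRNA can repress mRNAs other than its target. In the 3′ UTR of ENST00000336909, which has the same length in the tables and in GENCODE release 29, 1 match to the Si-FIBP#1 seed and 2 matches to the Si-FIBP#2 seed were found. They are shown because, among the members tested, IL6ST is the gene on which the siRNAs differed most clearly. The capitals mark the 7-letter match in 30 bases of the mRNA strand, with GRCh38 positions on the minus strand.
Si-FIBP#1 match at nucleotide 2818 of the transcript, chr5:55941040-55941069: tcctgctacaacTTCAGCAgtacctataaa
Si-FIBP#2 match at nucleotide 3094, chr5:55940764-55940793: aaaactttttgtTTTGCTAcatagaaaaca
Si-FIBP#2 match at nucleotide 6916, chr5:55936942-55936971: ataaatgtgcaaTTTGCTAgtaggacaatg
The background was 19893 genes with an annotated stop codon, whether or not a 3′ UTR followed it. TTCAGCA occurred in the 3′ UTR, on the mRNA strand, in 20.0% of them and TTTGCTA in 16.7%. Of the 10 members, 2 held the first (IL6ST and LIFR) and 3 the second (IL6ST, LIFR and IL6R), and the LIFR matches found lie in the minor transcript ENST00000263409. For the abundant LIFR transcript ENST00000453190 only the 627-nt 3′ UTR of release 29 was searched, while the deposited transcript is longer by far (10553 against 4253 nt). Whether these matches had a part in the levels was not tested.

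LIFR (ENSG00000113594, minus strand, chr5:38474963-38608354), the receptor subunit for LIF, oncostatin M and cardiotrophin-1, was at 0.67, 0.83 and 0.82 FPKM in Scramble, at 1.57, 1.56 and 1.82 FPKM after Si-FIBP#1 and at 1.57, 1.85 and 1.57 FPKM after Si-FIBP#2. The depleted samples stood at 213.5% and 215.1% of the Scramble mean, and all 6 lay above all 3 Scramble samples. The transcript ENST00000453190 alone, which is long, rested on 125.5 to 410.4 estimated fragments a library. The log2 fold changes were 0.58 ± 0.118 (95% CI 0.31 to 0.84, adjusted p = 0.00298) and 0.59 ± 0.118 (95% CI 0.32 to 0.85, adjusted p = 0.00273), and both also passed in the fit without a filter. LIFR-AS1 overlaps a LIFR exon on the other strand, and whether its reads were kept apart is not known, as for JAK1.

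The LIFR rise lay mostly in ENST00000453190, which was at 0.56, 0.64 and 0.67 FPKM in Scramble, at 1.57, 1.12 and 1.02 FPKM after Si-FIBP#1 and at 1.57, 1.85 and 1.48 FPKM after Si-FIBP#2. All 6 depleted samples were above Scramble here too. ENST00000263409, which starts further upstream, was at 0.11, 0.00 and 0.15 FPKM in Scramble, at 0.00, 0.44 and 0.62 FPKM after Si-FIBP#1 and at 0 in the 3 Si-FIBP#2 samples. Its mean was 0.353 FPKM with Si-FIBP#1 against 0.087 FPKM in Scramble, so part of the rise with that siRNA lay here. These 2 transcripts begin at separate promoters, and the windows from 250 bases before to 50 bases after each start are shown, as RefSeq gives them for GRCh38.p14 (minus strand). TTCNNNGAA, the letters of the element that STAT dimers bind, was searched in them, and since this motif is its own reverse complement both strands were covered.
ENST00000453190 start, chr5:38556597-38556896: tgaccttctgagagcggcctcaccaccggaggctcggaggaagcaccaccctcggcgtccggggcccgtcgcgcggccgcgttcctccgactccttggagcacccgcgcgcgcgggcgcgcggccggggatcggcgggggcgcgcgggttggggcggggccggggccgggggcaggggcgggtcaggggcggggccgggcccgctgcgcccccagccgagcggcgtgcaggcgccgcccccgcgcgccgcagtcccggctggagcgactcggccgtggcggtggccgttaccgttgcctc
ENST00000263409 start, chr5:38595356-38595655: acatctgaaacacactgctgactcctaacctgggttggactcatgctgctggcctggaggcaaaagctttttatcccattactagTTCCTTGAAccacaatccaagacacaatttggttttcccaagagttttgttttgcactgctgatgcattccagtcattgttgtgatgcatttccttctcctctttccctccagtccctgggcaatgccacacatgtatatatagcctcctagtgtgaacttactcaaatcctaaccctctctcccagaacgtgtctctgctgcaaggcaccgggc
The capitals mark the only match in these 2 windows, at position -165 from the start of ENST00000263409, the less abundant transcript. The window of ENST00000453190 held none. The motif occurred in 7.66% of 35116 promoter windows of this length and, of the 18 windows of the 10 members, in 2, both of them LIFR windows. The other of these, chr5:38557418-38557717, has its match at -182 from a RefSeq start at 38557467, which lies upstream of the start of ENST00000453190 at 38556646. For LIFR, SOCS3, PIAS3 and PIM1 no window covers the outermost gene start of release 29. In LIFR, SOCS3 and PIAS3 the sequence at that start was therefore not searched. The PIM1 window, chr6:37169902-37170201, ends just before that start at 37170203, so sequence upstream of it was searched and held no match. A match of letters is no evidence of binding, and its absence says only that these letters are not in the window. ENST00000453190 is 10553 nt long in the tables and 4253 nt in release 29, so its start in the authors' annotation may differ.

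IL6R (ENSG00000160712, plus strand, chr1:154405193-154469450), the receptor that binds IL-6, was at 1.61, 0.87 and 0.90 FPKM in Scramble, at 1.00, 0.64 and 1.07 FPKM after Si-FIBP#1 and at 1.61, 1.80 and 2.25 FPKM after Si-FIBP#2. The first Scramble sample reached the lowest Si-FIBP#2 sample, and the other Scramble samples lay with Si-FIBP#1. Neither siRNA differed from Scramble past the threshold, with -0.15 ± 0.174 (95% CI -0.54 to 0.24, adjusted p = 0.506) and 0.45 ± 0.174 (95% CI 0.06 to 0.84, adjusted p = 0.0547). The transcript table separates the samples further. ENST00000368485, the long transcript of 5764 nt, was at 0.63, 0.71 and 0.60 FPKM in Scramble, at 0.72, 0.64 and 0.95 FPKM after Si-FIBP#1 and at 1.61, 1.60 and 1.77 FPKM after Si-FIBP#2. All 3 Si-FIBP#2 samples lay above the other 6. In the first Scramble sample 0.50 and 0.48 FPKM came from the short transcripts ENST00000515190 and ENST00000502679, of 570 and 588 nt. Without that sample the change with Si-FIBP#2 was 0.61 (adjusted p = 0.0176), and with transcripts of at least 1000 nt alone it was 0.68 (adjusted p = 0.000111). The change with Si-FIBP#1 then took the other sign, at 0.01 and 0.08, and passed in neither.

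SOCS3 (ENSG00000184557, minus strand, chr17:78356778-78360077), the inhibitor that docks on gp130 and shuts off JAK activity, was at 8.29, 8.28 and 8.57 FPKM in Scramble, at 5.16, 4.34 and 3.88 FPKM after Si-FIBP#1 and at 4.96, 3.36 and 4.36 FPKM after Si-FIBP#2. Scramble samples were nearly alike, and every depleted sample lay well below them, at 53.2% and 50.4% of the Scramble mean. The log2 fold changes were -0.79 ± 0.127 (95% CI -1.07 to -0.50, adjusted p = 0.000775) and -0.86 ± 0.127 (95% CI -1.14 to -0.57, adjusted p = 0.00047). Both passed in all 18 alternatives. All SOCS3 FPKM came from 1 transcript, ENST00000330871 of 2734 nt, so no division among isoforms enters this value.

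SOCS1 (ENSG00000185338, minus strand, chr16:11254405-11256200), the inhibitor that binds the JAK kinase domain, stayed below 1 FPKM throughout. It was at 0.45, 0.09 and 0.29 FPKM in Scramble, at 0.44, 0.48 and 0.68 FPKM after Si-FIBP#1 and at 0.20, 0.54 and 0.52 FPKM after Si-FIBP#2. The groups overlapped. In ENST00000332029, which with ENST00000644787 makes up these sums, a single fragment was worth 0.0429 to 0.0512 FPKM, and the values of that transcript alone rest on an estimated 2.0 to 11.9 fragments a library. In the fit without a filter the log2 fold changes were 0.27 (adjusted p = 0.245) and 0.15 (adjusted p = 0.51), so no change in SOCS1 was detected. The size of change that so few fragments could show was not tested.

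PIAS3 (ENSG00000131788, minus strand, chr1:145848522-145859836), a SUMO ligase that binds activated STAT3, was at 33.14, 30.50 and 29.12 FPKM in Scramble, at 33.27, 31.57 and 31.72 FPKM after Si-FIBP#1 and at 32.46, 25.38 and 27.27 FPKM after Si-FIBP#2. All 3 groups overlapped, and the Si-FIBP#2 samples were the most spread. Neither difference passed, with 0.06 ± 0.0884 (95% CI -0.14 to 0.26, adjusted p = 0.621) and -0.13 ± 0.0884 (95% CI -0.32 to 0.07, adjusted p = 0.269). The value with Si-FIBP#2 passed under median-ratio scaling (-0.24, adjusted p = 0.0477) and without Si-FIBP#2 replicate 1 (-0.22, adjusted p = 0.034), and it was 0.01 on annotated transcripts alone. The sign with Si-FIBP#1 also turned under median-ratio scaling, to -0.02. On annotated transcripts alone the value with Si-FIBP#1 was 0.38 (adjusted p = 0.0591). Of the PIAS3 FPKM 52.2% came from 1 assembled transcript (MSTRG.1578.1), and NUDT17 overlaps a PIAS3 exon on the other strand.

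PIM1 (ENSG00000137193, plus strand, chr6:37170203-37175426), the survival kinase induced by STATs, showed the largest change of the 9 members tested. It was at 12.54, 12.02 and 10.73 FPKM in Scramble, at 4.97, 5.03 and 5.18 FPKM after Si-FIBP#1 and at 4.46, 4.87 and 4.11 FPKM after Si-FIBP#2. All 6 depleted samples lay far below Scramble, at 43.0% and 38.1% of its mean. The log2 fold changes were -1.07 ± 0.086 (95% CI -1.27 to -0.88, adjusted p = 1.03e-05) and -1.22 ± 0.086 (95% CI -1.41 to -1.03, adjusted p = 5.57e-06). The full-length transcript ENST00000373509 alone was at 11.25, 11.48 and 10.73 FPKM in Scramble, at 4.68, 4.48 and 4.20 FPKM after Si-FIBP#1 and at 4.46, 4.26 and 4.11 FPKM after Si-FIBP#2. It held most of the gene's FPKM in each group and was lower in every depleted sample.

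**Figure D1:**
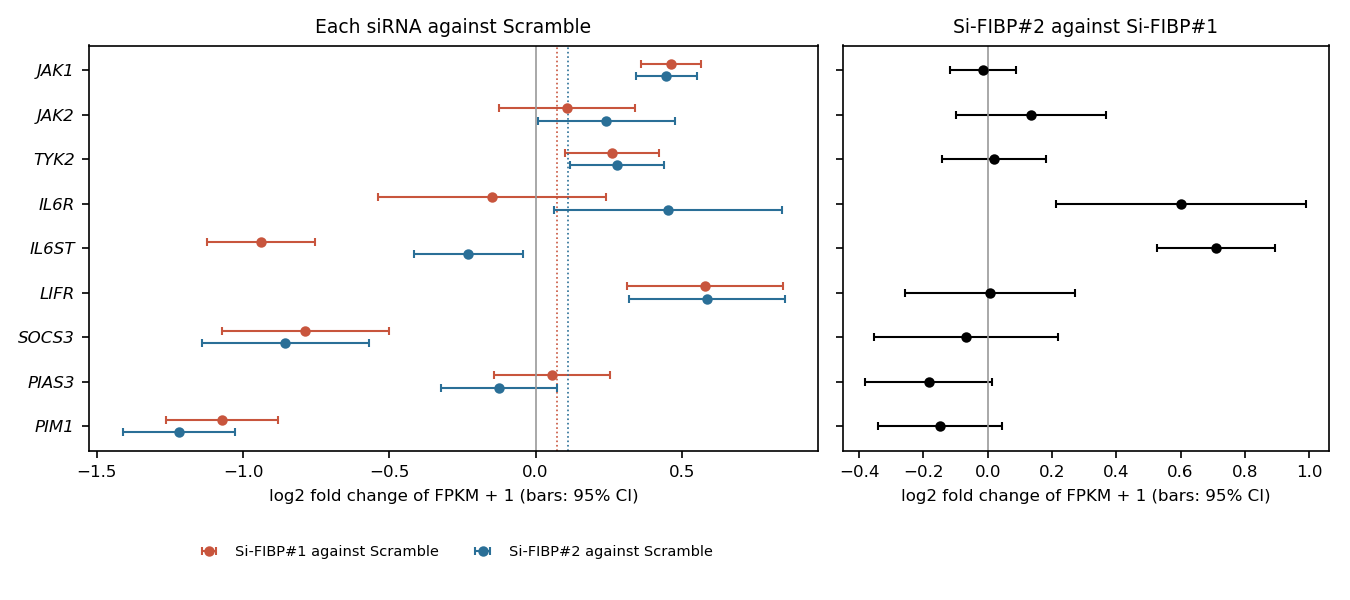
Left, log2 fold change of FPKM + 1 (x axis) of the 9 members tested for each siRNA against Scramble, with 95% confidence intervals, where the dotted lines mark the median of all genes (0.0733 for Si-FIBP#1, 0.111 for Si-FIBP#2). Right, the same for Si-FIBP#2 against Si-FIBP#1, where IL6ST (0.71) and IL6R (0.60) are the members whose intervals lie farthest from 0.

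The direct comparison of the siRNAs separated IL6ST and IL6R from the other members. IL6ST was higher with Si-FIBP#2 than with Si-FIBP#1 by 0.71 ± 0.0825 on the log2 scale (95% CI 0.53 to 0.90, adjusted p = 0.000872), and this passed in all 18 alternatives. IL6R was higher by 0.60 ± 0.174 (95% CI 0.21 to 0.99, adjusted p = 0.0448), which passed in 4 of 17. Thus 2 of 9 members passed, beside 15.4% of all genes, 9.58% as higher and 5.8% as lower, and neither exceeded 2-fold, beside 0.561%. Without the filter only IL6ST passed, beside 4.89%. For the members that both siRNAs moved, the differences between siRNAs had intervals of -0.12 to 0.09 for JAK1, -0.14 to 0.18 for TYK2, -0.26 to 0.27 for LIFR, -0.35 to 0.22 for SOCS3 and -0.34 to 0.05 for PIM1. With 3 samples a group, these bounds are the precision that the comparison had. FIBP itself differed by 0.13 (95% CI -0.28 to 0.54, adjusted p = 0.686).

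Over all 14985 genes the median log2 fold change was 0.0733 for Si-FIBP#1, 0.111 for Si-FIBP#2, and scaling by median ratio took it to 0.0037 and 0.0047. The share of calls that were higher thereby moved from 58.4% to 48.3% for Si-FIBP#1, from 63.7% to 47.6% for Si-FIBP#2 and from 62.3% to 47.4% between the siRNAs. Under that scaling, which sets the changes relative to the bulk of all genes, the rises of JAK1 and LIFR and the falls of SOCS3, PIM1 and, with Si-FIBP#1, IL6ST kept their direction and their calls. Scaled to TPM, the share for Si-FIBP#2 against Si-FIBP#1 was 74.7%.

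Upstream of the members stand the ligands of the gp130 family. IL6 was listed at 0 in all 9 samples, and of 9 ligand genes 3 could be tested. CTF1, which encodes cardiotrophin-1, a ligand of LIFR with gp130, rose from 2.00 ± 0.169 FPKM in Scramble to 5.21 ± 1.21 FPKM after Si-FIBP#1 and 4.37 ± 0.316 FPKM after Si-FIBP#2 (log2 fold changes 1.03 and 0.84, adjusted p = 0.000242 and 0.000829). CLCF1, a ligand of the CNTF receptor complex, fell from 4.95 ± 0.629 to 2.26 ± 0.236 and 2.28 ± 0.212 FPKM (-0.87 and -0.86, adjusted p = 0.000215 and 0.000227). LIF, a ligand of LIFR, was at 8.24 ± 1.24, 8.71 ± 0.758 and 11.7 ± 0.621 FPKM, and it rose with Si-FIBP#2 (0.47, adjusted p = 0.00542) while its value with Si-FIBP#1 was 0.08 (adjusted p = 0.584). In counts, 1 ligand rose and 1 fell of 3 with Si-FIBP#1, and 2 rose and 1 fell with Si-FIBP#2, beside 47.7% and 48.8% of all genes called.

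Of 6 other receptors that pair with gp130 or resemble it, 5 could be tested. With Si-FIBP#1, 2 rose and 1 fell, and with Si-FIBP#2, 3 rose and 1 fell, beside 47.7% and 48.8% of all genes called. Their medians were 0.09 and 0.53 on the log2 scale, against 0.0733 and 0.111 over all genes, so the first is close to that of genes in general. IL27RA, the IL-27 receptor chain, rose from 5.37 ± 0.393 to 10.4 ± 0.583 and 8.97 ± 0.912 FPKM (0.84 and 0.64, adjusted p = 6.31e-05 and 0.000309). IL11RA, which binds IL-11, rose from 6.10 ± 1.25 to 9.14 ± 0.922 and 9.15 ± 0.418 FPKM (0.53 and 0.53, adjusted p = 0.00708 and 0.00666). OSMR, the oncostatin M receptor that pairs with gp130, fell from 16.3 ± 0.255 to 9.82 ± 0.846 and 12.7 ± 1.27 FPKM (-0.68 and -0.34, adjusted p = 0.000165 and 0.00824). The OSMR values were lower with Si-FIBP#1 than with Si-FIBP#2, by 0.34 on the log2 scale (adjusted p = 0.0266), the same order as in IL6ST.

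**Figure D2:**
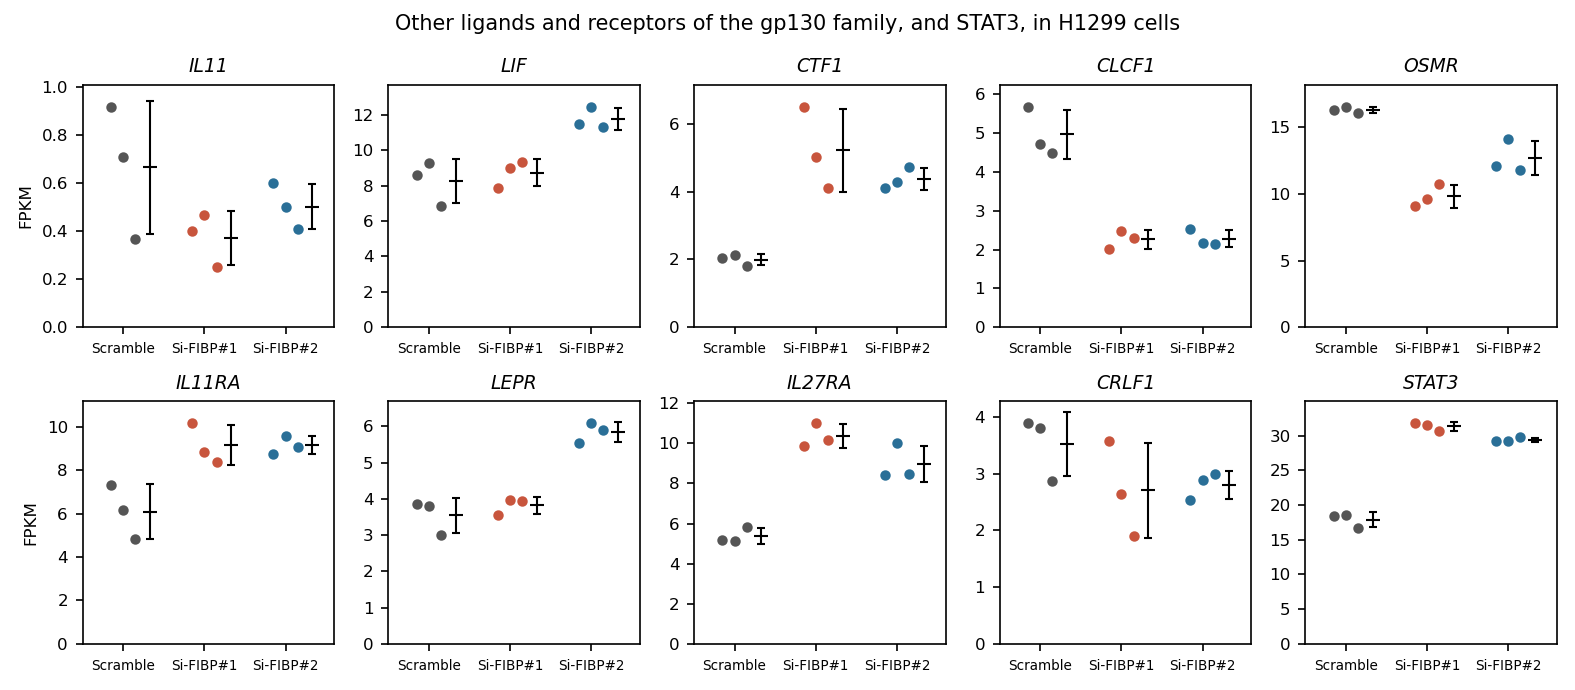
FPKM of 5 other gp130 family receptors, 4 ligands and STAT3 in each of the 9 samples (points, by group on the x axis), with the mean and SD of each group (n = 3) as a black bar. CTF1, IL11RA, IL27RA and STAT3 lie higher and CLCF1 and OSMR lower in all 6 depleted samples, and IL11 stays below 1 FPKM in every sample.

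Among receptors of other cytokines that use these kinases, 9 of 17 could be tested, and 3 rose and 2 fell with Si-FIBP#1, while 4 rose and 0 fell at the adjusted threshold with Si-FIBP#2, beside the same shares of all genes. Their medians were -0.068 and 0.087, below the 0.0733 and 0.111 of all genes. IL4R, the IL-4 receptor chain, and IFNGR2, the second chain of the interferon gamma receptor, were those that fell with Si-FIBP#1 (-0.60 and -0.20, adjusted p = 0.000373 and 0.00958), and with Si-FIBP#2 their values were -0.21 and -0.01 (adjusted p = 0.0699 and 0.895). IL10RB, a receptor chain that works with TYK2, rose from 16.4 ± 1.56 to 32.6 ± 0.515 and 26.1 ± 1.26 FPKM (0.96 and 0.65, adjusted p = 8.31e-06 and 9.84e-05). IFNGR1, which binds interferon gamma and carries JAK1, rose from 23.2 ± 0.982 to 39.3 ± 2.83 and 37.6 ± 4.73 FPKM (0.73 and 0.67, adjusted p = 0.000146 and 0.000265). IL13RA1, a chain of the IL-13 receptor, rose by 0.48 and 0.37 on the log2 scale (adjusted p = 0.000496 and 0.00231).

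Downstream of the kinases, STAT3 (ENSG00000168610) rose from 17.9 ± 1.07 to 31.3 ± 0.595 and 29.4 ± 0.325 FPKM (0.78 and 0.69, adjusted p = 6.5e-06 and 1.56e-05), so the mRNA of the factor and of its kinase JAK1 were higher in the same samples in which SOCS3 and PIM1 were lower. IRF9, the DNA-binding partner of STATs in the type I interferon response, rose by 0.74 and 0.89 (adjusted p = 0.00578 and 0.00204), and STAT6, the IL-4 factor, by 0.39 and 0.42 (adjusted p = 0.0481 and 0.0356). JAK3, the lymphoid JAK, was at 0.24 to 0.55 FPKM and was not tested. These are mRNA levels, and neither the amount of STAT3 protein nor its phosphorylation is measured by them. The study reports that FIBP silencing left total STAT3 protein and its tyrosine phosphorylation unchanged and lowered its serine phosphorylation. It also reports lower STAT3 activity in a luciferase reporter assay and less STAT3 binding at the promoter of the gene EME1 after silencing.

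Of 13 other negative regulators tested, of 15 listed, 2 rose and 2 fell with Si-FIBP#1, and 4 rose and 2 fell with Si-FIBP#2. These are 4 and 6 called of 13, beside 47.7% and 48.8% of all genes. Their medians were -0.069 and -0.141, against 0.0733 and 0.111 over all genes. PIAS4, a SUMO ligase related to PIAS3, rose from 13.6 ± 0.955 to 20.7 ± 2.18 and 22.0 ± 3.82 FPKM (0.57 and 0.65, adjusted p = 0.00338 and 0.00166). PTPN2, a phosphatase of JAK1 and STATs, rose by 0.17 and 0.18 (adjusted p = 0.0477 and 0.0419). PTPN11, the phosphatase SHP2 that docks on gp130, fell from 58.9 ± 1.96 to 44.4 ± 2.9 and 40.8 ± 6.19 FPKM (-0.40 and -0.53, adjusted p = 0.0067 and 0.0015).

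Of 18 other genes linked to STAT3, all tested, 4 rose and 7 fell with Si-FIBP#1, and 5 rose and 7 fell with Si-FIBP#2, beside 47.7% and 48.8% of all genes called. Their medians were -0.056 and -0.131, against 0.0733 and 0.111 over all genes. BIRC5, the mitotic survival protein survivin, fell by 1.45 on the log2 scale with Si-FIBP#1 and by 0.62 with Si-FIBP#2 (adjusted p = 2.44e-06 and 0.000404). FOS, an AP-1 subunit, fell by 1.25 and 0.56 (adjusted p = 4.52e-05 and 0.00509), and CCND1, the G1 cyclin D1, fell by 1.00 and 0.46 (adjusted p = 4.2e-05 and 0.00433). In these 3 genes the fall was larger with Si-FIBP#1, by 0.83, 0.69 and 0.54 (adjusted p = 0.000673, 0.00725 and 0.00736), whereas PIM1 did not differ between the siRNAs past the threshold. TIMP1, an inhibitor of metalloproteinases, rose by 0.27 and 0.50 (adjusted p = 0.000744 and 1.8e-05). VEGFA, the endothelial growth factor, rose by 0.41 and 0.31 (adjusted p = 0.0017 and 0.00769), and BCL6, a transcriptional repressor, by 0.22 and 0.28 (adjusted p = 0.0434 and 0.0157).

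Beside the 27.8% and 31.1% of all genes called higher, of 6 testable interferon-stimulated genes of 11 listed, 5 rose after Si-FIBP#1 and 3 after Si-FIBP#2, and none of these 6 fell at the threshold in this limma fit with either siRNA. USP18, which was placed among the other negative regulators instead, fell with Si-FIBP#1 (-0.48, adjusted p = 0.0133). Its value with Si-FIBP#2 was -0.23 (adjusted p = 0.177). IFIT3, an antiviral RNA-binding factor, rose by 0.52 and 0.60 (adjusted p = 0.0028 and 0.00115), IFIT1, of the same family, by 0.36 and 0.37 (adjusted p = 0.0317 and 0.0277), and ISG15, a ubiquitin-like protein, by 0.38 and 0.27 (adjusted p = 0.00357 and 0.0201).

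The genes most like PIM1 across the 9 samples, by Pearson correlation of log2(FPKM + 1), were TRIP13 (r = 0.9967), GINS3 (r = 0.994) and OIP5 (r = 0.9935). TRIP13, a mitotic checkpoint ATPase, went from a mean of 46.95 FPKM in Scramble to 19.6 and 17.8 FPKM with the siRNAs. The genes most like SOCS3 were FLNA (r = 0.9949) and HNRNPUL1 (r = 0.9922). FLNA, which encodes the actin crosslinker filamin A, went from 297.1 to 111.7 and 104.5 FPKM. These coefficients describe 9 samples that fall into Scramble and depleted clusters, so they follow largely from the step between the clusters, as for any gene with such a step.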

How the data were processed

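RNA-seq of 9 H1299 samples was used, grouped by the sample labels. The authors deposited 1 table per sample of FPKM for 244443 transcripts, rounded to 2 decimals, of which 14956 were assembled. The unit was inferred from the values. The submitters' processing notes name HISAT2 and StringTie. The genome build, annotation release and strand setting are not given in the sources used here. The files hold no counts.

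FPKM were summed per gene and tested with limma 3.58.1 in R 4.3.3 (empirical Bayes with a mean-variance trend) on log2(FPKM + 1), for genes at 1 FPKM in at least 3 of 9 samples, in 1 fit of all samples, two-sided, with Benjamini-Hochberg adjustment. The fit was tested on simulated data of 14985 genes with independent normal noise and 200 genes shifted by a log2 value of 1. Against Scramble, it found 94.5% of them in the Si-FIBP#1 comparison, where 8 calls were false, and 95.5% in the Si-FIBP#2 comparison, where 11 were false. The shifted genes were drawn above a level that JAK2, IL6R and LIFR did not reach. These shares therefore do not cover those members, or smaller changes. The data themselves had far more genes called than were shifted here. Python 3.11.15, numpy 2.4.6, pandas 2.3.3 and matplotlib 3.10.9 made the other values and the figures. Depth estimates used 8100 single-transcript genes, 800 to 2000 nt long. Loci and 3′ UTRs come from GENCODE release 29 (GRCh38), linked by Ensembl ID, and promoters from RefSeq.

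The members and gene lists were chosen with earlier results of these data known. The genes named beside the members, FIBP and STAT3 were, in each list, up to 3 with the largest rise and 3 with the largest fall among those that passed with both siRNAs in 1 direction with all 6 depleted samples beyond Scramble, and up to 3 genes most correlated with each of the 2 members that changed most. Some genes that this rule names, and the counts of the list of STAT genes, are not reported here. LIF, JAK3, IL6, IL11, IL4R, IFNGR2 and USP18 were named after their values were seen. The alternatives were TPM and median-ratio scaling, a pseudocount of 0.1, no filter or 5 FPKM, the groups compared alone, annotated transcripts alone, transcripts of at least 1000 nt (added after seeing the data), the replicate number as a block, each sample left out and a 2-fold threshold.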

Additional observations from a re-analysis of the deposited data

Results flagged for a closer look

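The effects of the 2 siRNAs differed in 2 members by the direct limma test of Si-FIBP#2 against Si-FIBP#1. For IL6ST the log2 difference was 0.71 (15.0 ± 1.21 FPKM after Si-FIBP#1, 25.2 ± 0.747 FPKM after Si-FIBP#2, n = 3 each), and it passed in all 18 alternatives. For IL6R it was 0.60 (0.903 ± 0.231 and 1.89 ± 0.329 FPKM), and it passed in 4 of 17 alternatives.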

How the results depend on the processing

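The calls of JAK1, LIFR, SOCS3 and PIM1 against Scramble, and of IL6ST with Si-FIBP#1 against Scramble and with Si-FIBP#2 against Si-FIBP#1, kept their direction and their side of the threshold in every alternative fit (17 for LIFR, which did not reach the filter of 5 FPKM, and 18 for the others). LIFR passed the filter only through its depleted samples, and of its 17 fits only the 1 without a filter is free of that selection. The other LIFR fits are therefore no separate support. Leaving out each sample gave 5 to 6 called members with Si-FIBP#1, 5 to 6 with Si-FIBP#2 and 1 to 2 between the siRNAs. Between the siRNAs, leaving out Si-FIBP#2 replicate 1 lost IL6R (adjusted p = 0.0666) and added PIAS3 (-0.28, adjusted p = 0.0452). With the 2-fold threshold the counts were 1, 1 and 0. Between the siRNAs the count was 1 under median-ratio scaling, a pseudocount of 0.1, no filter, a filter of 5 FPKM (which 6 members passed), annotated transcripts alone and the replicate block. Whether the replicate numbers pair the samples was not settled. Deviations of same-numbered samples correlated weakly, at -0.0568 to 0.103, and those of other pairs at -0.142 to 0.049. Even so, 8 of 9 samples were closest to their own number. With the block 7081, 7287 and 2177 genes were called of 14985, and among the members it changed the call of IL6R between the siRNAs only (0.60, adjusted p = 0.0581).

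Changes of sign all concerned values that did not pass. In PIAS3 they were -0.02 with Si-FIBP#1 under median-ratio scaling and 0.011 with Si-FIBP#2 on annotated transcripts. In IL6R with Si-FIBP#1 they were 0.081 with transcripts of at least 1000 nt and 0.007 without Scramble replicate 1 (range over samples left out, -0.23 to 0.007). Between the siRNAs, JAK1 was 0.03 scaled to TPM, and TYK2 and LIFR were -0.023 and -0.02 under median-ratio scaling. Leaving out samples gave -0.035 to 0.005 for JAK1, -0.035 to 0.051 for TYK2, -0.043 to 0.053 for LIFR and -0.17 to 0.057 for SOCS3. The cause was not tested. SOCS1 could be fitted without the filter only, and its transcript ENST00000332029 rests on an estimated 2.0 to 11.9 fragments a library.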
